A study of Mus musculus with 14 samples.

Results

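G2 and mitosis genes were followed in germinal centre (GC) B cells that were either wild type (WT) or carried SykY317F, each sorted into dark zone (DZ) and light zone (LZ) cells. The set was given as 48 gene symbols and taken by symbol from the table of unique molecular identifier (UMI) counts, in which each UMI stands for 1 captured mRNA molecule. Of the 48 members, 47 had a row among the 9969 genes of the table (Cdk1 was not analysed here), and 45 of these were among the 7999 genes with enough UMIs to be tested. Cenpf and Anln had too few.

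The cells came from popliteal lymph nodes of C57BL/6 chimeric mice in which 50% of the graft was WT and 50% SykY317F, harvested 14 days after immunization with NP-KLH, a hapten coupled to a carrier protein. All 4 groups thus come from mixed chimeras. The sources used here do not describe how the SykY317F allele was made or which cells of the host remain. Syk is the kinase that relays antigen receptor signals in B cells, and in SykY317F a tyrosine of its linker is replaced by phenylalanine. WT was represented by 4 libraries per zone and SykY317F by 3 per zone. Nothing in the labels ties each library to a mouse of its own, and p-values therefore measure only the spread between libraries.

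A cell leaves G2 when cyclin B and its kinase Cdk1 become active, and it then condenses its chromosomes, builds a spindle, and attaches each centromere to microtubules. The spindle assembly checkpoint holds the anaphase-promoting complex (APC/C) until all chromosomes are attached, after which Cdc20-bound APC/C destroys cyclin B and the cell divides. Transcripts of many of these genes are known to accumulate in G2 and mitosis. In the GC, the DZ is known as the place of rapid division and somatic hypermutation, and the LZ as the place where B cells meet antigen and helper T cells. In bulk libraries, fewer cells in G2 or mitosis and less mRNA per such cell cannot be told apart.

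Depth differed between the groups. The 3 SykY317F LZ libraries held 149641 to 379125 UMIs. WT DZ libraries held 747948 to 1767898, WT LZ libraries 499443 to 1600902 and SykY317F DZ libraries 381954 to 1413310. Per 100 reads, 9.37 to 15.8 UMIs were obtained in SykY317F LZ, 15.6 in replicate 4 of SykY317F DZ, and 33.5 or more elsewhere. A gene counted 3 times stood at 8.95 to 18.8 CPM (the UMI count scaled by the library's TMM-adjusted UMI total) in SykY317F LZ, and all members together had 220 to 601 UMIs there, so changes in weakly expressed members were not detectable in that group. The GC B cell markers Bcl6 and S1pr2 were present in all 4 groups. Of 13 tested GC B cell markers, 8 were lower in LZ than in DZ over both genotypes (median log2 fold change -0.48). Of these, 2 passed an edgeR adjusted p of 0.05, against 0.875% of all genes called lower. In WT 11 were lower (median -0.53) and 1 passed, against 0.138% of all genes. In SykY317F 6 were lower (median 0.02) and 0 passed. Their part in the members' zone difference was not tested. Cd83, a surface marker of LZ cells, was higher in LZ than in DZ over both genotypes (edgeR adjusted p = 0.00848), with a log2 fold change of 0.94 ± 0.24 (SE) in WT and 1.06 ± 0.28 in SykY317F. Cxcr4, the receptor that marks DZ cells, had a log2 fold change of -0.62 ± 0.30 in WT and 0.23 ± 0.35 in SykY317F and passed in neither.

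The members share a promoter feature that the choice of genes did not use. Promoters of late cell cycle genes are known for the cell cycle genes homology region (CHR), bound by the DREAM and MuvB complexes, and for CCAAT boxes, bound by NF-Y. RefSeq promoters (GRCm38.p6, 250 bases before to 50 after the annotated start) were found for 42 of the 48 members, as 45 sequences. A CHR match (TTTGAA or TTCGAA, either strand) was present in 37 of these 45 (82.2%), against 19.2% of all 32851 promoters of the same length. A CCAAT match on either strand was present in 36 of 45 (80.0%), against 37.4% of all, and 33 (73.3%) held both, against 7.52% of all. From 60 bases before to 50 after the start, 71.1% of member promoters held a CHR match, against 5.9% of all. Matches to the E2F forms TTTGGCGC, TTTCGCGC, TTTCCCGC and TTTGCCGC, on either strand, were found in 3 of the 45 (6.67%), against 2.26% of all. None of these motifs contains another, but a CCAAT and its reverse form can overlap, as in Ube2c.

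**Figure D1:**
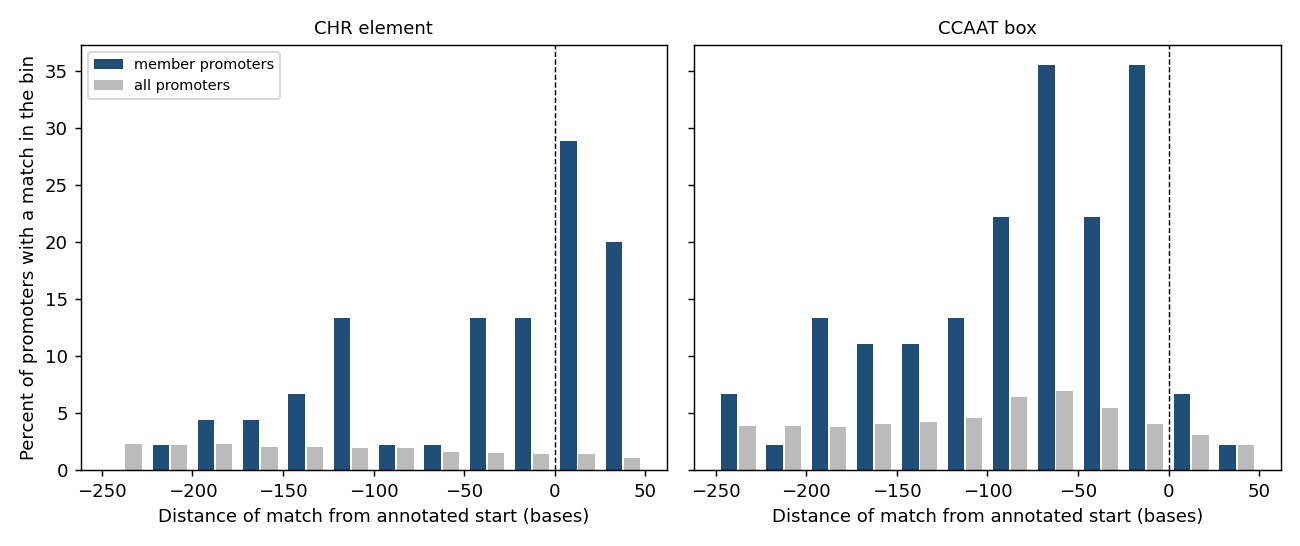
Share of promoters (vertical axis, percent) with a CHR match (left) or a CCAAT match (right) beginning in each bin of 25 bases, against distance from the annotated start (dashed line). Dark bars are the 45 member promoters and grey bars all 32851 promoters. Member CHR matches were most frequent in the first 25 bases after the start (28.9% against 1.43%), and CCAAT matches in bins before it.

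The promoters below are those of the members with the smallest p in the zone comparison that follows, written 5′ to 3′ on the gene's strand with CHR and CCAAT matches on either strand in capitals. They are shown because the members with the clearest zone difference carry the paired elements in different arrangements, and because some of them carry neither.
Cdc20: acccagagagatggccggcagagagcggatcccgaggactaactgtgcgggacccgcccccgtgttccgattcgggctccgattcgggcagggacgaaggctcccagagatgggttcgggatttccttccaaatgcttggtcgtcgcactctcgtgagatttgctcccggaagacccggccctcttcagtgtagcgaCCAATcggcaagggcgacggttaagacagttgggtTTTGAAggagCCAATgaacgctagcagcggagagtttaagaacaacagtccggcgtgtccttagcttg
Ccnb2: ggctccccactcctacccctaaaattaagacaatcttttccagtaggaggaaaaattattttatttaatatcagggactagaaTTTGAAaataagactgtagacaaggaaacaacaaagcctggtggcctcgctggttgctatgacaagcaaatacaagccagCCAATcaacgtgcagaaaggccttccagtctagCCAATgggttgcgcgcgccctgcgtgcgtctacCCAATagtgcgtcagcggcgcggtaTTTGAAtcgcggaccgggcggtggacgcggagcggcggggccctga
Ube2c: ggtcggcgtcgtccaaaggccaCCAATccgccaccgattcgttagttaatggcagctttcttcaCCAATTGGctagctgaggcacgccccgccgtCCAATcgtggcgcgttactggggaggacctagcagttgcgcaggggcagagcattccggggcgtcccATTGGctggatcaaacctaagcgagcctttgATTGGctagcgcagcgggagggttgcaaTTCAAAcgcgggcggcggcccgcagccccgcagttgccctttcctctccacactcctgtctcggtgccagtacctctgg
Cenpa: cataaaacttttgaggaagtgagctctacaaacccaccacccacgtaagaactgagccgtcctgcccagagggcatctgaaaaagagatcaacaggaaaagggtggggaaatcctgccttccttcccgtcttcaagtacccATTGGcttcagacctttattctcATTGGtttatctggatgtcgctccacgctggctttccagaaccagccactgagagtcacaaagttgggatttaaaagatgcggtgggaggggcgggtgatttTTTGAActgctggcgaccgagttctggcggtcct
Mad2l1: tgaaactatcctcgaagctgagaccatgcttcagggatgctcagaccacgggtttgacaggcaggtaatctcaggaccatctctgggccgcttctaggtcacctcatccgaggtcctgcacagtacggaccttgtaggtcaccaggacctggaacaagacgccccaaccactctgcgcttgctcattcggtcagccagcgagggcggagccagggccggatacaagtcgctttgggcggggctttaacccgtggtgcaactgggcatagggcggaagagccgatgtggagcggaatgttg
Birc5: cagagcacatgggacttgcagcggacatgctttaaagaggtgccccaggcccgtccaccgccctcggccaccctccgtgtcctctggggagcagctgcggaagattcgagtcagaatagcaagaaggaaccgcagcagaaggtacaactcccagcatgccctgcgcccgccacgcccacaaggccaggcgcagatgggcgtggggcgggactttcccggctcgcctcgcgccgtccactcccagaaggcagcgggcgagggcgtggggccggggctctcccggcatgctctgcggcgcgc
In Cdc20 (chr4:118437294-118437593, minus strand) a CHR match begins 18 bases before the start, between CCAAT matches that begin 53 and 8 bases before it. Ccnb2 (chr9:70421505-70421804, minus strand) has CCAAT matches 87, 54 and 21 bases before the start and a CHR match 5 bases after it, with another CHR match 167 bases before it. Ube2c (chr2:164769679-164769978, plus strand) has a reversed CHR match 29 bases before the start and reversed CCAAT matches 88 and 57 bases before it, besides 4 more distant CCAAT matches. Cenpa (chr5:30666636-30666935, plus strand) has a CHR match 17 bases after the start and reversed CCAAT matches 109 and 86 bases before it. Mad2l1 (chr6:66534971-66535270, plus strand) and Birc5 (chr11:117848987-117849286, plus strand) have no match to either in this window, and for Mad2l1 the GENCODE gene begins at 66535390, past the window's end.

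For contrast, the following are the members in the promoter table with the largest p in that comparison.
Smc2: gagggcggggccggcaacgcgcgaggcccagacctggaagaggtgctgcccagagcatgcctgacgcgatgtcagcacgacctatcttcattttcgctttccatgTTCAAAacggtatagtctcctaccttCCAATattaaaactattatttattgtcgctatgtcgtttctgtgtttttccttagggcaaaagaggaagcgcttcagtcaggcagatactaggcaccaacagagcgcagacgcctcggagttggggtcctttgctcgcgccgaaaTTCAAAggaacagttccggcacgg
Nuf2: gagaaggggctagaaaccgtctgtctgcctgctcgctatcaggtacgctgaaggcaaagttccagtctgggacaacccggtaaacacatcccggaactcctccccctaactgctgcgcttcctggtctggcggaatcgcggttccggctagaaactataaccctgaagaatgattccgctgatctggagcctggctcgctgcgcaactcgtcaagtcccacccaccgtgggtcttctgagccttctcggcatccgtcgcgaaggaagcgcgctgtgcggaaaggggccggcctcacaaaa
Smc2 (chr4:52438971-52439270, plus strand) has reversed CHR matches 145 bases before and 27 bases after the start and a CCAAT match 119 bases before it. Nuf2 (chr1:169531415-169531714, minus strand) has neither. Across members, the 34 with a CHR match (31 tested) had a median log2 zone difference of -0.48, and the 8 without one also -0.48. With both motifs the median was -0.59 (28 tested), and in the other members -0.38 (11 tested). These medians were not tested against each other.

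Summed over the 47 members with a row, the set made up 0.344%, 0.444%, 0.382% and 0.328% of UMIs in WT DZ replicates 2, 3, 4 and 5. In WT LZ replicates 1, 2, 3 and 5 it made up 0.182%, 0.197%, 0.416% and 0.312%. The WT groups overlapped, because LZ replicate 3 stood above all DZ libraries but replicate 3. In SykY317F DZ replicates 1, 2 and 4 the share was 0.298%, 0.253% and 0.334%, and in SykY317F LZ replicates 1, 2 and 4 it was 0.159%, 0.109% and 0.184%. Every SykY317F LZ library stood below every DZ library of either genotype. The group means were 0.374 ± 0.052% (SD, n = 4) for WT DZ against 0.277 ± 0.109% for WT LZ (n = 4), and 0.295 ± 0.041% for SykY317F DZ (n = 3) against 0.150 ± 0.038% for SykY317F LZ (n = 3).

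The first question was how these genes differ between the zones, taken as the mean of the LZ against DZ difference in WT and in SykY317F. Cdc20, Ccnb2, Mad2l1, Ube2c and Cenpa were lower in LZ, and no member was higher past the threshold. These 5 of 45 tested members compare with 0.875% of all tested genes called lower in this contrast and 1.43% called in either direction (edgeR quasi-likelihood test, Benjamini-Hochberg adjusted p under 0.05 over 7999 genes). In all, 43 of 45 members had a log2 fold change below 0, against 53.7% of all tested genes, and the median was -0.48 against -0.03 for all tested genes. An unadjusted p under 0.05 was reached by 17 members, all lower, against 7.94% of all genes lower and 14.3% in either direction. The fitted values of all 45 are in the plot of zone differences by role.

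**Figure D2:**
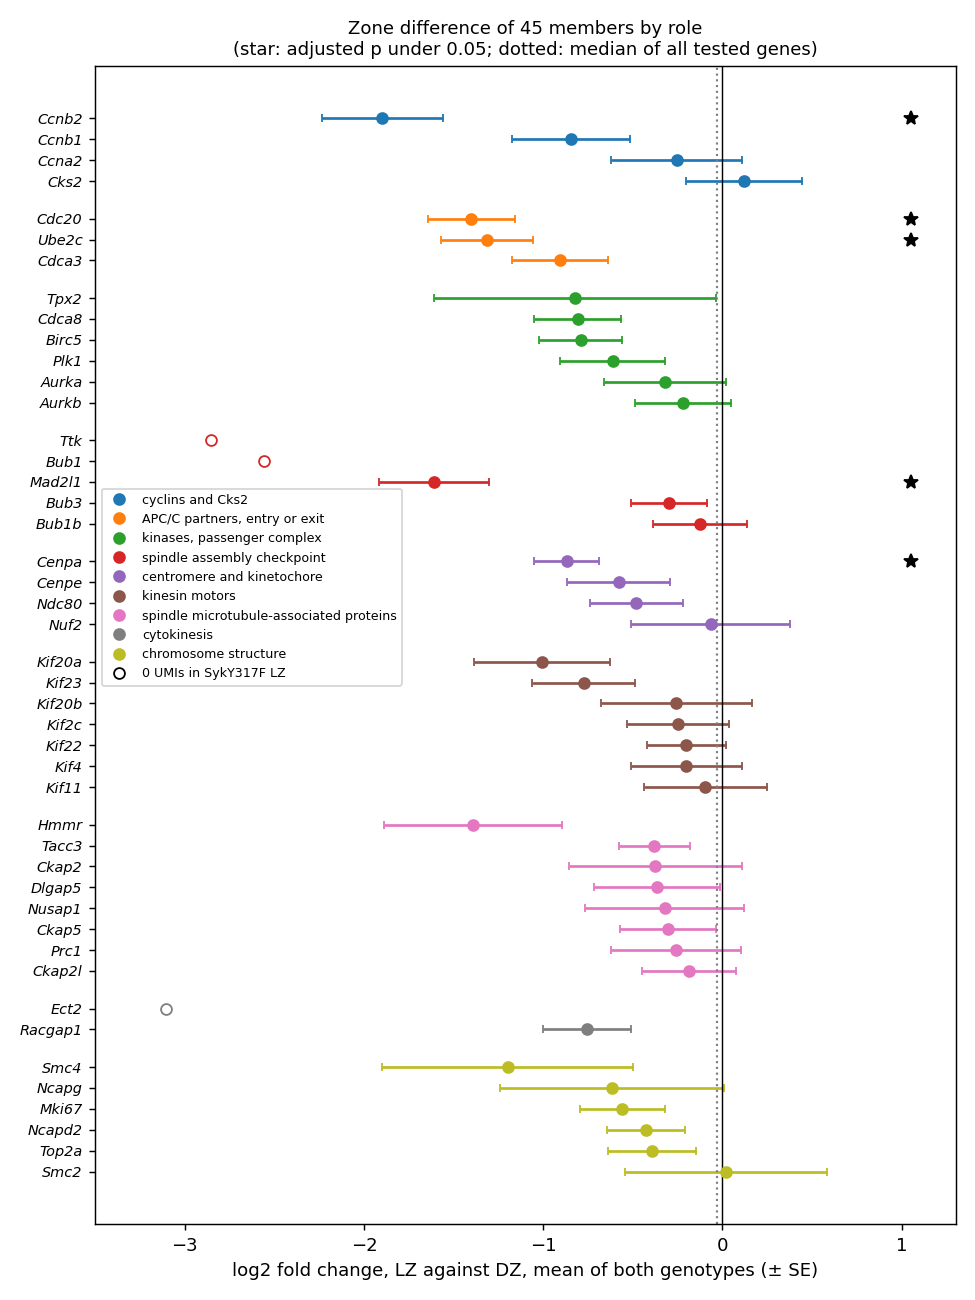
Log2 fold change of LZ against DZ, mean of both genotypes, with its SE (horizontal axis), for the 45 tested members ordered by role. Stars mark the 5 members past the threshold, the dotted line is the median of all tested genes (-0.03), and open circles mark members with 0 UMIs in SykY317F LZ, whose fitted values are not bounds. Nearly all points lie left of 0, and Cks2 and Smc2 lie right of it.

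Among the cyclins, Ccnb2 (chr9:70407692-70421547), a B-type cyclin of mitotic Cdk1, stood at 102, 213, 198 and 199 CPM in WT DZ replicates 2 to 5 and at 52.7, 63.3, 134 and 72.7 CPM in WT LZ replicates 1, 2, 3 and 5. In SykY317F it stood at 188, 102 and 177 CPM in DZ replicates 1, 2 and 4 and at 29.8, 0 and 43.9 CPM in LZ replicates 1, 2 and 4. The SykY317F zones did not overlap, while in WT the lowest DZ library lay below the highest LZ library. The fitted log2 fold change was -1.90 ± 0.34 (SE, edgeR adjusted p = 0.00848), and the SykY317F LZ values rest on 17 UMIs. Ccnb1 (chr13:100778650-100786570), the other mitotic B cyclin, had means of 35.9 ± 8.17 CPM in WT DZ, 22.5 ± 13.5 in WT LZ, 26.9 ± 1.19 in SykY317F DZ and 14.9 ± 5.24 in SykY317F LZ. With a log2 fold change of -0.84 ± 0.33 it did not pass (adjusted p = 0.229). Cks2, a small Cdk-binding subunit, was 1 of the members on the other side, at 0.12 ± 0.32.

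Of the APC/C partners, Cdc20 (chr4:118432901-118437352), the APC/C activator of anaphase, stood at 104, 123, 87.2 and 106 CPM in WT DZ replicates 2 to 5 and at 42.8, 44.5, 71.0 and 42.7 CPM in WT LZ replicates 1, 2, 3 and 5. In SykY317F it stood at 78.4, 58.5 and 116 CPM in DZ and at 29.8, 11.3 and 31.4 CPM in LZ (replicates 1, 2 and 4 of each). All LZ libraries lay below all DZ libraries of their genotype. For Cdc20 the log2 fold change was -1.40 ± 0.24 (edgeR adjusted p = 0.00614), with 17 UMIs in SykY317F LZ. An exon of Cdc20 overlaps Elovl1 on the opposite strand, and the strand setting of the authors' counting is not stated in the labels. In all, 16 members overlap exons of another annotated gene, 8 of them a gene in the table, and their counts are uncertain to that extent. Ube2c is among the 16, through Tnnc2 on the opposite strand, which has no row.

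Ube2c (chr2:164769898-164778822), the ubiquitin-conjugating enzyme that works with APC/C, stood at 170, 181, 168 and 229 CPM in WT DZ replicates 2 to 5 and at 55.9, 70.2, 182 and 124 CPM in WT LZ replicates 1, 2, 3 and 5. In SykY317F it stood at 146, 126 and 218 CPM in DZ and at 50.7, 39.5 and 43.9 CPM in LZ. The zones overlapped in WT through LZ replicate 3 only, and did not overlap in SykY317F. Ube2c had a log2 fold change of -1.31 ± 0.25 (edgeR adjusted p = 0.0119), on 31 UMIs in SykY317F LZ. Cdca3, which promotes mitotic entry, had -0.91 ± 0.27 and did not pass (adjusted p = 0.104).

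Mad2l1 (chr6:66535390-66547220) encodes Mad2, the checkpoint protein that binds Cdc20 and holds APC/C back. It stood at 71.2, 109, 85.4 and 76.0 CPM in WT DZ replicates 2 to 5 and at 29.6, 24.7, 61.4 and 50.8 CPM in WT LZ replicates 1, 2, 3 and 5. In SykY317F it stood at 56.6, 55.2 and 105 CPM in DZ and at 8.95, 11.3 and 31.4 CPM in LZ. Neither genotype's zones overlapped, and LZ was lower in each. Its log2 fold change was -1.61 ± 0.31 (edgeR adjusted p = 0.0108), on 10 UMIs in SykY317F LZ. Of the other checkpoint genes, Bub3 and Bub1b had log2 fold changes of -0.30 and -0.12 and did not pass. Ttk (Mps1) and Bub1, both checkpoint kinases, had 0 UMIs in SykY317F LZ.

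Cenpa (chr5:30666777-30674830), the histone H3 variant that marks centromeres, stood at 225, 257, 243 and 295 CPM in WT DZ replicates 2 to 5 and at 105, 110, 198 and 139 CPM in WT LZ replicates 1, 2, 3 and 5. In SykY317F it stood at 248, 186 and 254 CPM in DZ and at 134, 152 and 94.1 CPM in LZ. Again neither genotype's zones overlapped. The Cenpa log2 fold change was -0.87 ± 0.18 (edgeR adjusted p = 0.0178), on 87 UMIs in SykY317F LZ, the most of the 5. Cenpe, a kinetochore motor, had -0.58 ± 0.29 (adjusted p = 0.363), and the Ndc80 complex members Ndc80 and Nuf2, which hold microtubules, had -0.48 and -0.07.

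**Figure D3:**
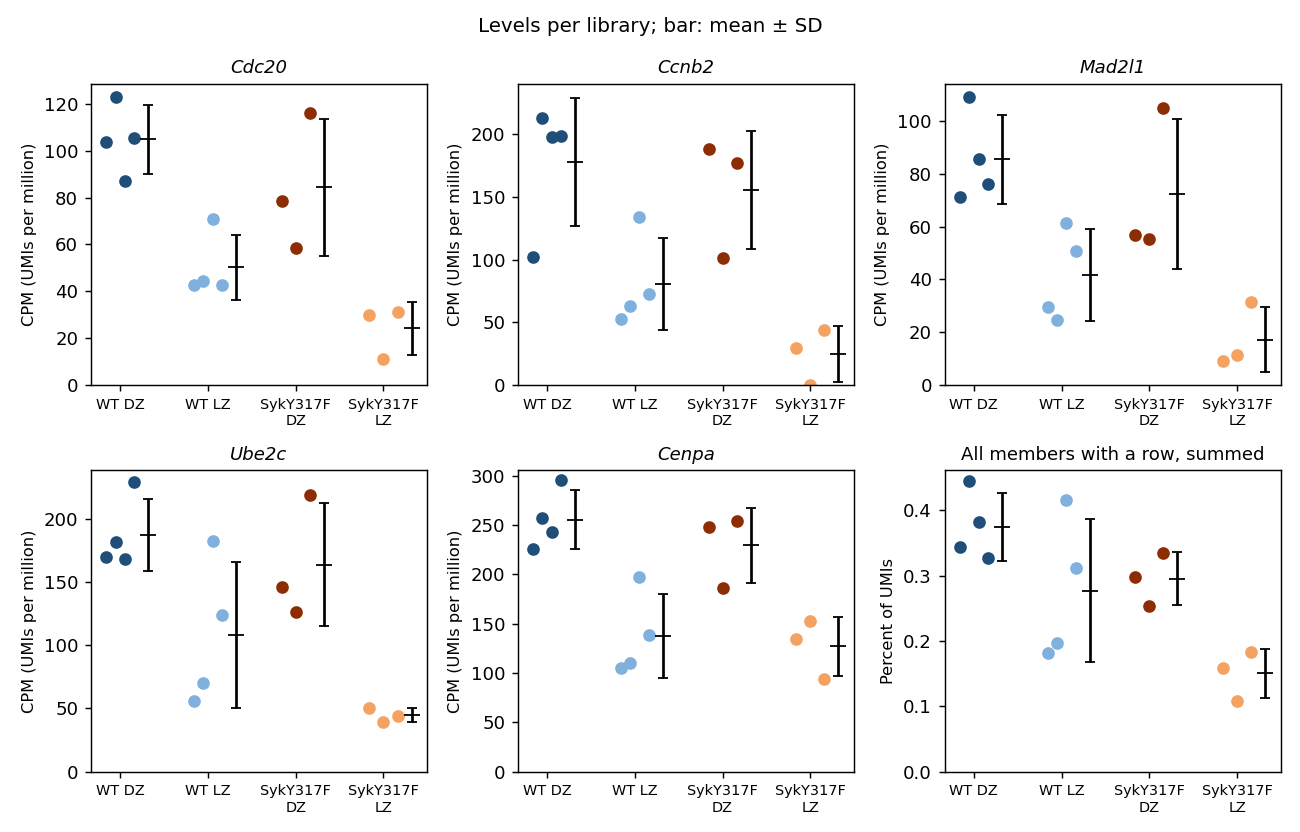
CPM per library (points) with mean ± SD (bars) for the 5 members past the threshold in the mean zone contrast, and, bottom right, the percent of UMIs from all 47 members with a row. For Cdc20, Mad2l1 and Cenpa every LZ point lies below every DZ point of the same genotype, while for Ccnb2, Ube2c and the sum 1 WT LZ library (replicate 3) reaches the WT DZ range.

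The mitotic kinases and their partners had log2 fold changes below 0 without passing. Birc5 (survivin) and Cdca8 (borealin), subunits of the chromosomal passenger complex, had -0.79 ± 0.23 (adjusted p = 0.0958) and -0.81 ± 0.24 (adjusted p = 0.110). Aurkb, the kinase of that same complex, had -0.22 ± 0.27 (adjusted p = 0.765), with 78.6 ± 23.4 CPM in WT DZ against 88.2 ± 24.8 in WT LZ. Plk1, which drives mitotic entry and spindle assembly, had -0.61 ± 0.29 (adjusted p = 0.341). Whether subunits of the complex differ from each other was not tested.

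Kinesins and spindle proteins did not pass either. Of 7 kinesins, all 7 were below 0 and 0 passed. Kif20a, a motor of cytokinesis, had -1.01 ± 0.38 and Kif23, a motor of the central spindle, -0.77 ± 0.29 (edgeR adjusted p = 0.214 and 0.206). Kif11, the bipolar spindle motor, had -0.10. Of 8 spindle-associated proteins, all 8 were below 0 and 0 passed. Hmmr, a spindle pole protein, had -1.39 ± 0.50 (adjusted p = 0.179) on 4 UMIs in SykY317F LZ, and Tacc3, which stabilises spindle microtubules, had -0.38 ± 0.20. In cytokinesis, Racgap1, a central spindle protein, had -0.76 ± 0.25 (adjusted p = 0.143).

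Of 6 tested chromosome structure genes, 5 were below 0 and 0 passed. Mki67 (Ki-67), which coats mitotic chromosomes, had -0.56 ± 0.24 (adjusted p = 0.272), and Top2a, the topoisomerase that untangles sister DNA, -0.39 ± 0.25 (adjusted p = 0.480). Of the condensin subunits, Ncapd2 had -0.43 ± 0.22, Smc4 -1.20 and Ncapg -0.62, and Smc2, at 0.02 ± 0.56, was the other member above 0. Smc4 stood at 63.4, 182, 159 and 15.1 CPM in WT DZ replicates 2 to 5, and its spread within groups was the widest of the members.

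All 5 members were also called without SykY317F LZ replicate 2 and without replicate 4, with 0.697% and 1.58% of all genes. After thinning every library to 149641 UMIs, 4 of the 24 members then tested were called, with 61 genes in all. With SykY317F LZ replicates 2 and 4 left out together (like the thinning, added after seeing the data), which leaves SykY317F LZ with 1 library assumed to vary like the other groups, 0 members and 17 genes in all (0.194%) passed in edgeR. The 5 members then had log2 fold changes from -1.99 for Mad2l1 to -0.83 for Cenpa (adjusted p from 0.0753 to 0.144). Without SykY317F LZ replicate 1, 3 passed (Ccnb2, Cdc20 and Ube2c), and with deposited read counts in place of UMIs also 3 (Cdc20, Ube2c and Cenpa), with 0.535% and 0.516% of all genes. Cenpa also missed the threshold without SykY317F DZ replicate 1 (adjusted p = 0.0636) or replicate 4 (adjusted p = 0.0526). Markers of other cell types were read in the same libraries. For plasma cell markers the summed share was 0.220% to 0.288% of UMIs in WT DZ and 0.121% to 0.172% in WT LZ, and 0.201% to 0.235% in SykY317F DZ and 0.118% to 0.153% in SykY317F LZ. Of the 5 of those markers with a row, Sdc1, which defines plasma cells, had 2, 5, 10 and 0 UMIs in the 4 groups, and most of the sum was Mzb1 and Jchain. In the mean zone contrast 3 of the 4 tested plasma cell markers were below 0 (median -0.59). Of these Mzb1 alone passed (edgeR adjusted p = 0.0414), against 0.875% of all genes called lower. Irf4 was higher in LZ, at 35.5 CPM in WT DZ, 82.8 in WT LZ, 79.3 in SykY317F DZ and 112 in SykY317F LZ. Summed T cell markers were 0.0101% to 0.0185% of UMIs in WT DZ and 0.0193% to 0.0329% in WT LZ, and 0.0214% to 0.0351% in SykY317F DZ and 0.0185% to 0.0274% in SykY317F LZ (9 of 14 markers with a row). Most of this sum was Lck and Lat. Of 6 tested T cell markers, all 6 were above 0 for LZ against DZ in WT (median 1.31). There 3 had an unadjusted edgeR p under 0.05, against 8.48% of all genes. In SykY317F 1 was above 0 (median -0.90), in the mean zone contrast 4 (median 0.17), and 0 passed in any. Summed myeloid markers (10 of 13 with a row) were 0.0304% to 0.0742% in WT DZ, 0.0292% to 0.0471% in WT LZ, 0.0493% to 0.0799% in SykY317F DZ and 0.0376% to 0.0735% in SykY317F LZ. Cybb had the most UMIs of these markers in each group. Of 8 tested myeloid markers, 7 were below 0 in the mean zone contrast (median -0.78) and 7 in SykY317F alone (median -2.32), and 0 passed. In SykY317F 6 had an unadjusted edgeR p under 0.05, of which 5 were lower, against 10.3% and 6.23% of all genes. The macrophage genes C1qa, C1qb and C1qc were at 27.1, 37.2 and 24.3 CPM in SykY317F DZ and at 3.76, 8.52 and 0.995 CPM in SykY317F LZ. The SykY317F LZ values rest on 2, 5 and 1 UMIs. In WT these genes were higher in LZ, at 4.39, 6.17 and 2.89 CPM in DZ and 10.7, 10.3 and 8.10 CPM in LZ. Cybb was higher in SykY317F LZ, at 432 CPM against 263 CPM in SykY317F DZ. The part of the plasma cell, T cell and myeloid markers in the zone difference was not tested.

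Within WT alone, 36 of 45 members were below 0 in LZ, against 51.7% of all genes, and the median was -0.25 against -0.02. No member passed in edgeR (0 of 45, where 0.188% of all genes did, and 0.138% passed as lower). An unadjusted p under 0.05 was reached by 9 members, all lower, against 3.89% of all genes lower and 8.48% in either direction. Cdc20 had -1.09 ± 0.27 and Cenpa -0.90 ± 0.23, each with adjusted p = 0.103. Both passed in DESeq2, which called 2 members and 84 genes in all. By limma voom 4 members (Ccnb2, Cdc20, Mad2l1 and Cenpa) and 3.69% of all genes were called. The authors' deposited table also has 2 members under an adjusted p of 0.05 here, Cdc20 and Cenpa, against 0.782% of its genes. Cdc20, Mad2l1 and Cenpa were the 3 of 45 whose LZ libraries all lay below all DZ libraries, against 2.88% of all genes, and 0 members lay wholly above, against 2.89%. WT LZ replicate 3 had the highest level of its group in 40 of 47 members. Without it the median was -0.45 and 1 member passed (Cenpa), with 0.324% of all genes. The median was -0.11 without WT LZ replicate 1, -0.16 without WT DZ replicate 3 and -0.39 without WT DZ replicate 5. It was -0.46 by limma voom and -0.40 over the 24 members tested after thinning.

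Within SykY317F alone, 43 of 45 members were below 0 in LZ, against 53.3% of all genes. The median was -0.79 against -0.04 for all genes, or -0.66 with the 3 members that had 0 UMIs in LZ set at their bounds. No member passed in edgeR (0 of 45, against 0.0375% of all genes in either direction and 0.025% lower). An unadjusted p under 0.05 was reached by 12, of which 11 were lower, against 10.3% and 6.23% of all genes, and DESeq2 called 4 (Ccnb2, Cdc20, Ube2c and Mad2l1) with 0.488% of all genes. Ccnb2 had -2.62 ± 0.57 and Ube2c -1.82 ± 0.42, each with adjusted p = 0.111. In the authors' deposited table those 2 members are under an adjusted p of 0.05, against 0.221% of its genes. In 19 of 45 members all LZ libraries lay below all DZ libraries, against 8.5% of all genes, and in 1 (Cks2) all lay above, against 6.56%. Ect2, which acts in cytokinesis, had 29 UMIs in DZ and 0 in LZ, summed over libraries. With LZ set at 3 UMIs over the group, which a count of 0 still allows, Ect2 was 2.01-fold lower and Bub1 1.25-fold (18 against 0 UMIs). These bounds take the DZ counts as exact and leave out the spread between libraries, so smaller differences or none remain possible. SykY317F DZ replicate 4 also had 0 Bub1 UMIs. Ect2 and Bub1 did not pass (edgeR adjusted p = 0.428 and 0.615). For Tpx2, which activates Aurora A, 18 UMIs against 1 gave a ratio of 3.75 (95% counting interval 0.592 to 156). In both genotypes at once, LZ lay below DZ in Cdc20, Mad2l1 and Cenpa, 3 of 45 against 0.813% of all genes.

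The second question was whether the SykY317F variant changes these genes within a zone. In DZ no member passed (0 of 45, with 0% of all genes called in edgeR), although 44 of 45 were below 0, against 55% of all genes, and the median was -0.41 against -0.04 for all genes. Without WT DZ replicate 3 the median was -0.25. An unadjusted p under 0.05 was reached by 1 member, Kif22, which was lower, against 0.988% of all genes lower and 3.81% in either direction. Kif22, a chromosome arm motor, stood at 89.3, 92.5, 57.8 and 118 CPM in WT DZ replicates 2 to 5 and at 51.5, 57.8 and 58.1 CPM in SykY317F DZ replicates 1, 2 and 4. SykY317F replicates 2 and 4 lay level with the lowest WT library, and the other 3 WT libraries lay above. The log2 fold change was -0.69 ± 0.28 (unadjusted p = 0.0235, adjusted p = 0.9999). Racgap1 was the 1 member whose SykY317F DZ libraries all lay below all WT DZ libraries, against 2.31% of all genes, and 0 members lay wholly above, against 3.56%. Ckap5, a microtubule polymerase, was the 1 member above 0, at 0.13 ± 0.34. In this contrast T cell and myeloid markers lay on the opposite side from the members. Of 4 tested plasma cell markers, 3 were below 0 (median -0.11). All 6 tested T cell markers were above 0 (median 2.09), as were all 8 myeloid markers (median 0.59), and 0 of them passed in edgeR. An unadjusted edgeR p under 0.05 was reached by 4 T cell and 3 myeloid markers, against 3.81% of all genes. Their part in the members' difference was not tested.

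In LZ the genotype differences had a median farther from 0, but no member passed (0 of 45, with 0% of all genes called in edgeR). Of the 45, 41 were below 0, against 54% of all genes, and the median was -0.82 against -0.06. An unadjusted p under 0.05 was reached by 16, of which 15 were lower, against 9.81% and 6.18% of all genes. Top2a stood at 82.3, 129, 290 and 216 CPM in WT LZ replicates 1, 2, 3 and 5 and at 74.6, 56.5 and 75.3 CPM in SykY317F LZ replicates 1, 2 and 4. Each SykY317F library lay below each WT library. Its log2 fold change was -1.36 ± 0.38 (unadjusted p = 0.00170, adjusted p = 0.209).

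Kif23 stood at 47.2, 88.0, 106 and 98.2 CPM in WT LZ and at 41.8, 22.6 and 12.5 CPM in SykY317F LZ, again without overlap. The SykY317F LZ values rest on 14, 4 and 2 UMIs. Its log2 fold change was -1.57 ± 0.46 (adjusted p = 0.257), and Ube2c had -1.23 ± 0.40 (adjusted p = 0.310). In 11 of 45 members the SykY317F LZ libraries all lay below the WT LZ libraries, against 6.66% of all genes. With SykY317F LZ set at 3 UMIs over the group, Bub1 (49 summed UMIs in WT LZ, 0 in SykY317F LZ) was 2.63-fold lower. Set in the same way, Ect2 was 1.77-fold lower (33 against 0 UMIs) and Ttk 1.66-fold (31 against 0 UMIs). These bounds take the WT LZ counts as exact and leave out the spread between libraries, so smaller differences or none remain possible. WT LZ replicate 1 also had 0 Bub1 UMIs. Bub1, Ect2 and Ttk did not pass (edgeR adjusted p = 0.444, 0.456 and 0.409). With read counts 2 members passed, Cdc20 and Kif23, with 0.569% of all genes. Read counts keep PCR copies, and the SykY317F LZ libraries had the fewest UMIs per read.

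Cks2 went the other way. It stood at 13.2, 9.89, 7.68 and 8.66 CPM in WT LZ replicates 1, 2, 3 and 5 and at 47.8, 16.9 and 25.1 CPM in SykY317F LZ replicates 1, 2 and 4, so every SykY317F LZ library lay above every WT LZ library, which held for 1 member against 3.84% of all genes. Its log2 fold change was 1.67 ± 0.48 (adjusted p = 0.250), on 41 UMIs in WT LZ and 23 in SykY317F LZ. In DZ its genotype difference was -0.59. Smc2 and Ncapg were also above 0 in LZ, at 0.36 ± 0.94 and 0.16 ± 0.999, each smaller than its error, as was Ckap5 at 0.07 ± 0.41.

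**Figure D4:**
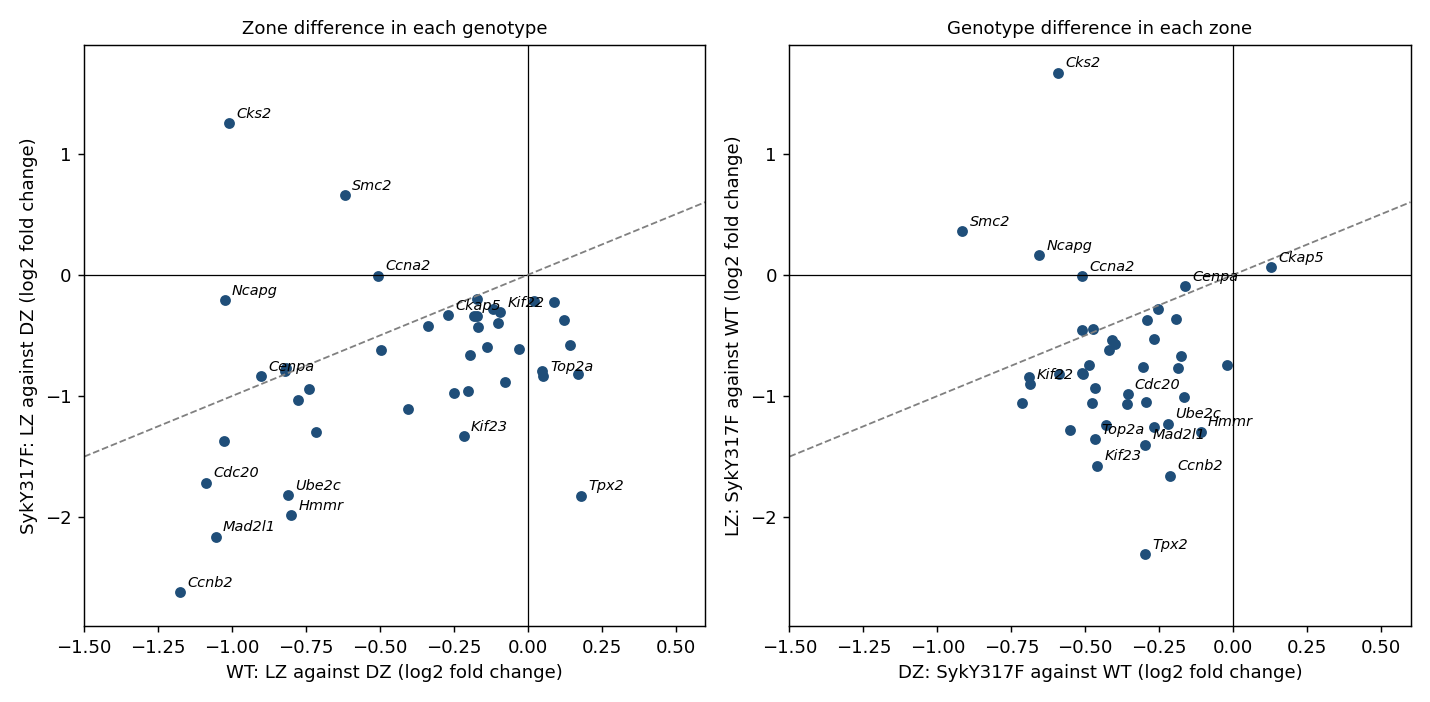
Left, the LZ against DZ log2 fold change in WT (horizontal) and in SykY317F (vertical); right, the SykY317F against WT log2 fold change in DZ (horizontal) and in LZ (vertical). Each point is 1 tested member, the dashed line marks equal values, the axes differ in scale, and the 3 members with 0 UMIs in SykY317F LZ are left out. Most points lie below the line in both panels, and Cks2 lies highest in both.

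The third comparison asked whether the zone difference itself differs between the genotypes. It passed for no member and for no gene (0 of 45, 0% of all genes, edgeR). The median difference of log2 fold changes over members was -0.46 against -0.05 for all genes, and 38 of 45 were below 0, against 53.7% of all genes. An unadjusted p under 0.05 was reached by 2, of which 1 was lower, against 4.8% and 3.18% of all genes. These were Cks2, at 2.26 ± 0.64 (unadjusted p = 0.00200, adjusted p = 0.991), and Ccnb2, at -1.45 ± 0.69 (unadjusted p = 0.04996, adjusted p = 0.999). Ube2c followed at -1.01 ± 0.51. The median difference was -0.17 without WT LZ replicate 3, -0.72 without SykY317F LZ replicate 1 and -0.29 with the stricter filter of 20 counts in 3 libraries, so its size depends on these.

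Members moved together between libraries of the same group. After the group means were removed, the median correlation (Pearson r, log2 CPM) over 990 pairs of members was 0.37 across 14 libraries, with 84.8% of pairs above 0, while all 7999 genes gave 0.003 and 50.2%. These values share library depth and base composition, and the correlation is a description. The members' transcripts had a median GC content of 46.1%, against 50.7% for all tested genes, and libraries differed in how their levels followed GC content, with a correlation across all genes from -0.60 in WT DZ replicate 4 to 0.59 in WT DZ replicate 5. The LZ against DZ log2 fold change of all genes also rose with GC content (r = 0.33 in the mean zone contrast, 0.38 in WT, 0.21 in SykY317F). Over the members alone, r was 0.14, -0.04 and 0.16. Members below the median GC of the set, such as Smc4, Ncapg, Bub1 and Smc2, had a median within-group SD of 0.67 log2 units, against 0.50 for the rest, at median levels of 25.9 and 73.3 CPM. When each library's trend with GC was removed (added after seeing the data), the mean zone contrast called 4 members, without Mad2l1, and 2.6% of all genes, and its median member value was -0.24. The median was then -0.13 for the zones in WT, -0.46 for the zones in SykY317F and -0.27 for the difference between them. The part of GC content in the zone difference of single members was otherwise not tested.

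**Figure D5:**
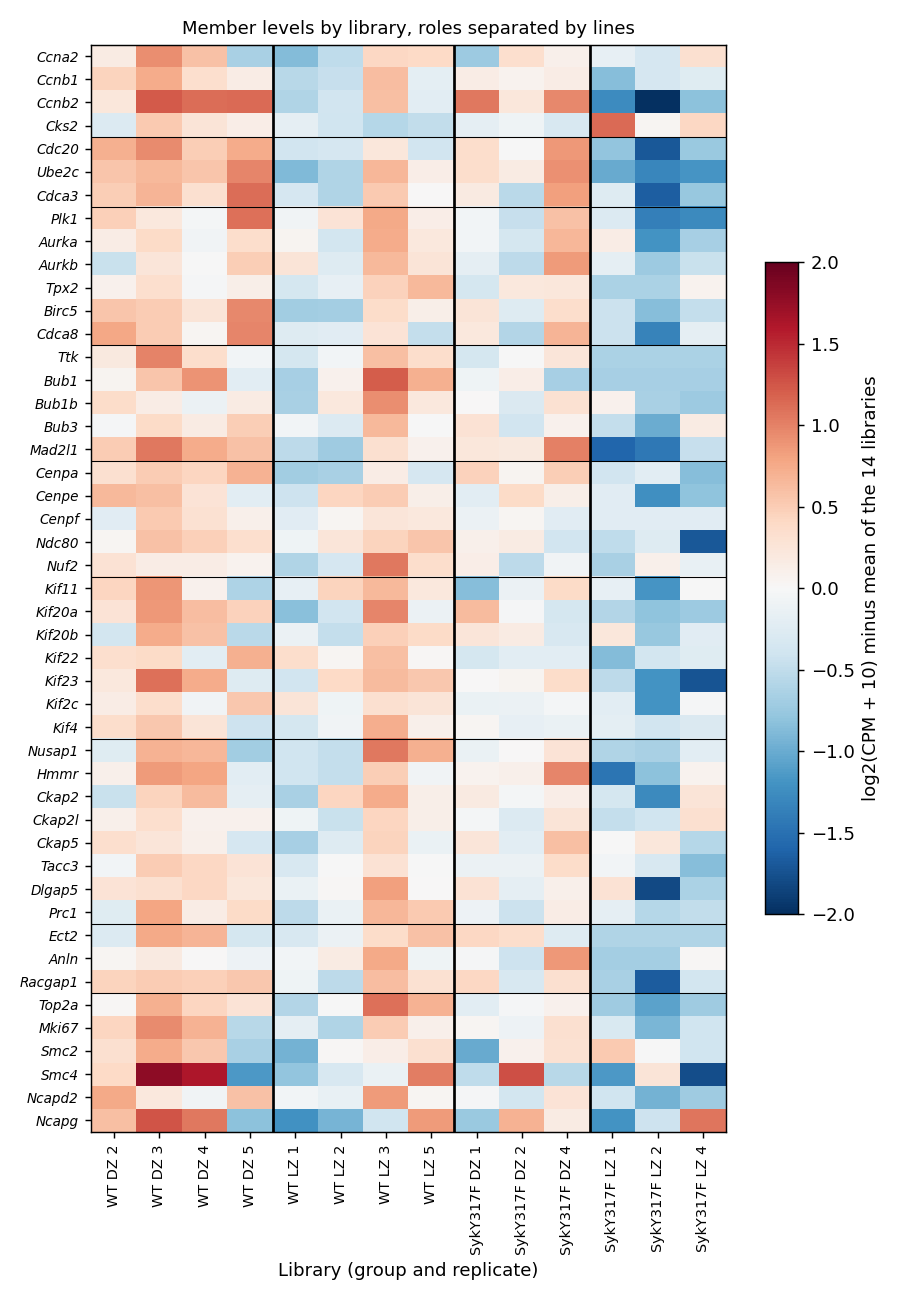
Level of each member (rows, by role) in each of the 14 libraries (columns), as log2(CPM + 10) minus the gene's mean over all libraries, on a scale cut at 2 in each direction. WT LZ replicate 3 is the highest WT LZ library in 40 of 47 rows, and the SykY317F LZ columns are mostly blue, with exceptions such as Cks2 and, in replicate 4, Ncapg.

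Other cell cycle genes had medians nearer to 0 in the mean zone contrast. The list of other G2 and mitosis genes includes APC/C subunits such as Anapc2, Anapc5 and Anapc7. The part of the lists' make-up in their medians was not tested. Of 103 other tested G2 and mitosis genes, 71 were below 0 (median -0.18) and 3 passed, all lower, against 0.875% of all genes: Nek2, Cdc25b and Lbr. Nek2, a centrosome kinase, had -1.40 ± 0.29 (edgeR adjusted p = 0.0178), with means of 53.4 ± 9.96 CPM in WT DZ, 30.4 ± 11.8 in WT LZ, 42.1 ± 8.94 in SykY317F DZ and 10.9 ± 1.82 in SykY317F LZ. Cdc25b, a phosphatase that activates Cdk1, had -0.91 ± 0.21 (adjusted p = 0.0318), and Lbr, the lamin B receptor, -1.08 ± 0.27 (adjusted p = 0.0436). Of 57 tested S phase genes, 39 were below 0 (median -0.20), 0 passed in edgeR, and 8 had an unadjusted p under 0.05, which is 14.0% of the list against 14.3% of all genes. The smallest p among them was that of Rfc4, a subunit of the clamp loader, at -1.09 ± 0.29 (adjusted p = 0.0683). In the genotype comparison within LZ, 48 of 57 S phase genes (median -0.58) and 81 of 103 other G2 and mitosis genes (median -0.39) were below 0, and 0 of either passed in edgeR. Among them 16 and 21 had an unadjusted p under 0.05, against 9.81% of all genes. Within DZ, 52 of 57 S phase genes (median -0.41) and 85 of 103 other G2 and mitosis genes (median -0.30) were below 0. The members' median there was -0.41. Of the 2 lists 0 passed, and 7 and 3 had an unadjusted edgeR p under 0.05, against 3.81% of all genes.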

How the data were processed

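Per the labels' protocols, sorted cells were lysed, polyadenylated RNA was bound to oligo(dT) beads, and a MARS-seq variant that puts UMIs on transcript ends gave the libraries. Tools named in the submitters' processing notes include STAR 2.4.2a and HTSeq, beside cutadapt, DESeq and DESeq2, with mm10 as the build. The deposited UMI counts and read counts are whole numbers per gene symbol, not normalized. The log2 fold changes and adjusted p-values of the authors' deposited table served only for counts of its calls. The 28 other columns of values per sample were not used.

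UMI counts were filtered (filterByExpr, 7999 of 9969 genes, 99.3% of UMIs), scaled by TMM and fitted with edgeR 4.0.16 (quasi-likelihood, robust, 4 groups over 14 libraries, biological variation between libraries 32.3%), run in R 4.3.3. The Benjamini-Hochberg adjustment covered all 7999 genes, and the threshold was 0.05. CPM use TMM-adjusted totals. Counting intervals (exact binomial, 95%) cover counting error only, and floors (3 UMIs) cover that of the count of 0 alone. Alternatives were other scalings and filters, DESeq2 1.42.0, limma 3.58.1 voom, a fit of the compared groups alone, a replicate block, read counts and runs without each library in turn. After seeing the data, 3 more were added: removal of GC trends, thinning to 149641 UMIs (11 draws) and a run without SykY317F LZ replicates 2 and 4. The steps were tested on simulated data. Gene positions are GRCm38 (GENCODE M21) and promoter sequences RefSeq GRCm38.p6.

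The members and lists were chosen with earlier results of these data known. Members were named if past the threshold in any contrast, if among the 2 with the smallest p of their role in the mean zone contrast, if among the 3 with the smallest p in each direction in a genotype contrast or the difference, if on the minority side, or as fixed names. Of the other lists, those past the threshold were named, and otherwise those with the smallest p. Further members were added for their role after their values were seen.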

Additional observations from a re-analysis of the deposited data

Results flagged for a closer look

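In groups of 4 libraries, 56 checks of single values against their group found 3 values far from the rest. Chance alone picks out about 1 in 20 groups, so flags are to be expected among 56 checks. Ccnb2 stood at 102 CPM in WT DZ replicate 2, below the other libraries of the group at 198 to 213. Cdc20 stood at 71.0 CPM in WT LZ replicate 3, above the other 3 at 42.7 to 44.5. Ncapd2, a condensin subunit, stood at 240 CPM in WT LZ replicate 3, above the other 3 at 116 to 133.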

How the results depend on the processing

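The median member values of the 6 contrasts kept their direction under all 154 alternative runs, though some moved by over 1.5 times, and 904 of 940 runs for single members kept direction and side of the threshold. With removal of GC trends the medians were -0.13 in WT, -0.46 in SykY317F, -0.24 over both genotypes, -0.27 for how the zone effects differ and -0.58 between genotypes in LZ. Members called in the WT zone contrast numbered 2 in DESeq2, 4 in limma voom and 1 with GC trends removed, and 0 to 1 when each library was left out. In the SykY317F zone contrast they numbered 4 in DESeq2 (0.488% of all genes), 2 with read counts (0.211%) and 1 after thinning (4 genes in all). Between genotypes in LZ they numbered 2 with read counts (0.569%). In the mean zone contrast they numbered 3 with read counts (0.516% of all genes). When each library was left out they numbered 3 to 7, with 0.508% to 1.93% of all genes. Without both libraries with the fewest UMIs, the median member value there was -0.41.

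Whether same-numbered libraries deviate together was mixed: 5 of 10 pairs had a correlation of 0.13 to 0.21 and the other 5 of -0.56 to 0.08, so a pairing was not shown and no block was used. With replicate number as a block, the mean zone contrast called 4 members, without Cenpa (adjusted p = 0.0854), and 28 genes (0.35%). The median member value between genotypes in DZ was then -0.10, and 0 members were called in the other 5 contrasts.

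Directions changed in 19 runs, all of members that did not pass, while 13 runs lost and 4 gained a call. In the mean zone contrast Aurkb ranged from -0.375 to 0.0267 and Cks2 from -0.191 to 0.228 when each library was left out, with the change of sign without SykY317F DZ replicate 4 and SykY317F LZ replicate 1. Smc2 ranged from -0.315 to 0.326 there, and stood at -0.0739 when scaled by library size alone and at -0.0652 in DESeq2. Between genotypes in DZ, Ckap5 ranged from -0.0868 to 0.363 (among them -0.00036). Between genotypes in LZ, Smc2 ranged from -0.317 to 0.724 and Ncapg from -1.07 to 1.23, and Ncapg stood at -0.261 in limma voom and at -1.71 without both shallow libraries. The causes were not tested. Depth limits the members with few UMIs in SykY317F LZ.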
